A study of Mus musculus with 3 samples.

Results

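The genes described here encode the isoenzymes of glycolysis and of the tricarboxylic acid (TCA) cycle, from glucose uptake to malate. They were 39 genes chosen by symbol and grouped into 19 enzyme steps, out of 20660 named genes on the array, and 56 probes measured them. Many are alternative forms of a step, and some are different subunits of an enzyme or, for Pdk1, a kinase that acts on it. All 3 samples belonged to 1 group. They were J1 mouse embryonic stem cells (mESCs), a line of the 129S4/SvJae strain, treated with 1 µM PD0325901 (PD) for 24 h in medium with knockout serum replacement and 1000 U/mL leukemia inhibitory factor (LIF), on gelatin and without feeder cells. PD inhibits MEK, the kinase that activates ERK, and LIF keeps mESCs undifferentiated. Per the methods the replicates came from independent experiments, and they cover 1 cell line, 1 dose and 1 time. Control cells were not analysed here, so every value below describes PD-treated cells, and no effect of PD can be read from any of them.

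Glycolysis breaks glucose down to pyruvate in the cytosol. Pyruvate is then reduced to lactate, or enters the mitochondrion, where pyruvate dehydrogenase turns it into acetyl-CoA for the TCA cycle. Most steps have more than 1 gene in mammals. One form is usually found in nearly all tissues, and the others belong to muscle, brain, liver, red cells or the male germ line. Pluripotent stem cells are known for a high rate of glycolysis alongside respiration, and the question here was which isoenzymes had a signal in these cells and how closely the replicates repeated it.

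The processed signal of a spot is its fluorescence after background subtraction, in intensity units. The level of a gene is the log2 of that signal minus the 75th percentile of its array, so that 0 is the 75th percentile. This percentile was 551, 511 and 527 in replicates 1, 2 and 3. A probe was taken as detected when the scanner software flagged it well above background on all 3 arrays, and the lowest signal so flagged was 10.1, 11.4 and 10.3. No spot was saturated, control spots not counted. Of 308 negative control spots, which match no mouse transcript, 5, 16 and 4 were also flagged well above background, so replicate 2 had the highest share, 5.19% against 1.62% and 1.30%. Each probe binds with a strength of its own, and the values therefore say whether a gene had a signal and how it varied between samples, and not how much more of one isoenzyme than of another there was. All 8 markers of mESCs on the list (Pou5f1, Nanog, Sox2, Zfp42, Esrrb, Klf4, Tdgf1 and Dppa5a) were detected, beside 72.7% of all named genes. Their summed signals were 299000 to 321000. Dppa5a alone gave 206458, 202351 and 189708 of these sums, and Nanog gave 694.8, 689.9 and 689.1.

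Nearly every isoenzyme gene had a signal. Of the 39 genes, 38 were detected on all arrays, beside 72.7% of the 20660 named genes, and of the 56 probes 55 were detected, beside 72.4% of the 27235 probes with a gene name. Pklr, the pyruvate kinase of liver and red cells, was the exception, and it was detected on 0 arrays. All 19 steps had at least 1 detected gene, and of 14 steps with several genes 13 had more than 1 detected. The pyruvate dehydrogenase and succinyl-CoA ligase steps are among these 13, and their genes include different subunits and, with Pdk1, a kinase. The steps from glucose uptake to lactate had 24 of 25 genes detected and those from pyruvate dehydrogenase to malate 14 of 14. The median level of the detected genes was 4.41, beside 0.61 for the 14999 detected named genes with a level on every array, and it was higher on each array by 3.80 ± 0.031 (SD, n = 3). A level above 0 was found for 33 of 38, beside 57.1% of those 14999 genes. This describes the whole list and does not compare single genes.

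**Figure D1:**
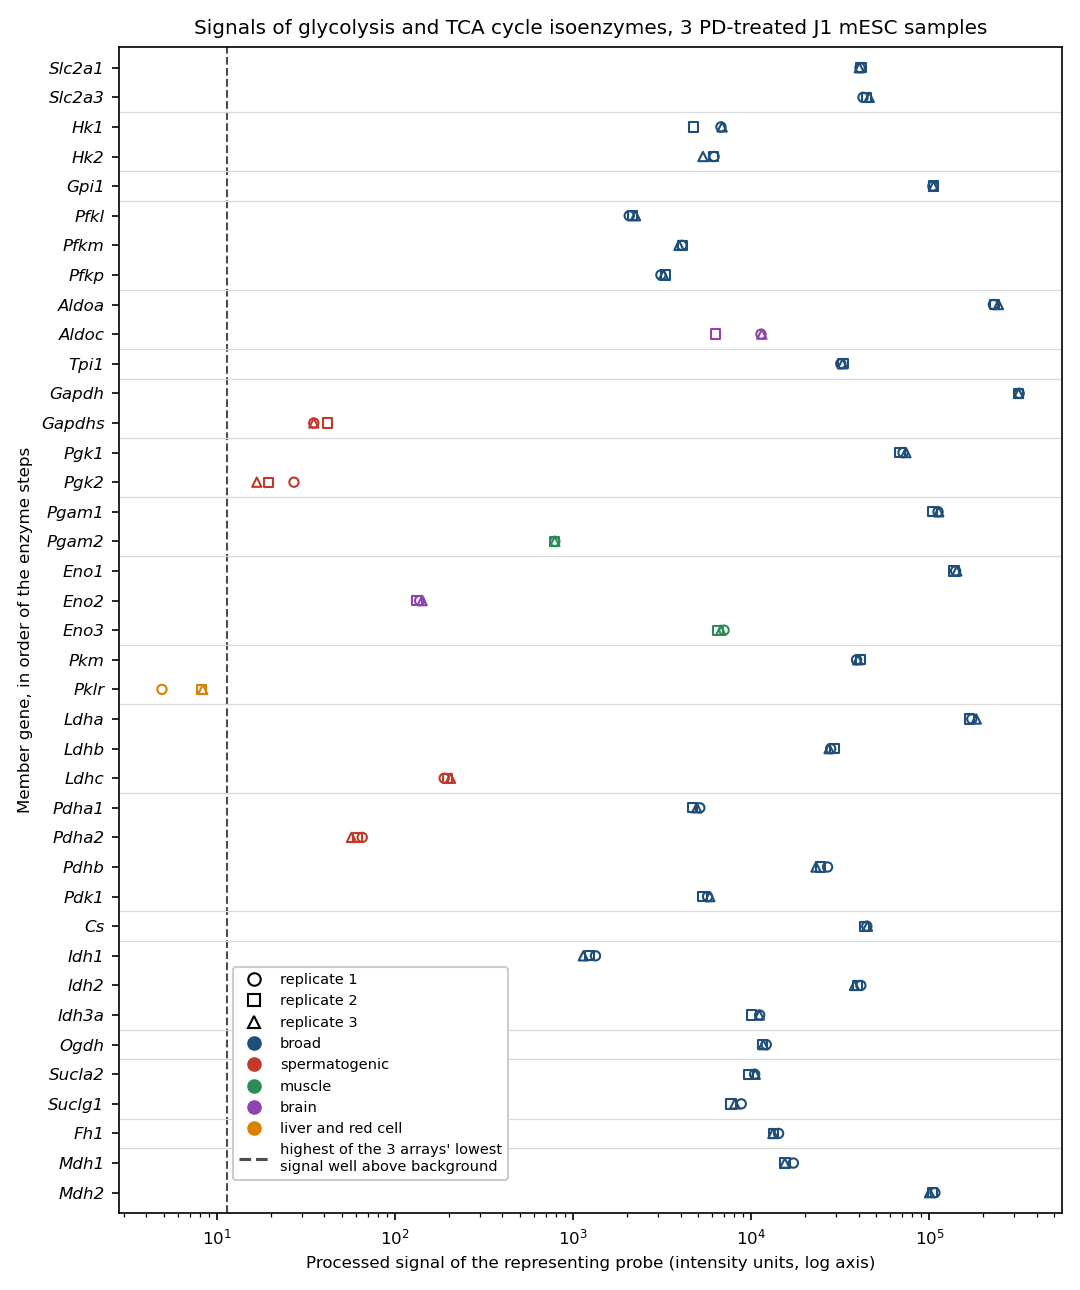
Processed signal (intensity units, log axis) of the probe that represents each of the 39 genes, in order of the enzyme steps. Each replicate has 1 symbol, and colours mark the widespread class and the tissue-restricted classes. Signals ran from below 10 for Pklr to 318821 for Gapdh, and the replicates lay close together for most genes. The dashed line, at 11.4, is the highest of the 3 arrays' lowest signals well above background.

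Glucose enters through facilitative transporters. Slc2a1, the widespread basal transporter GLUT1, had signals of 40748, 41217 and 40373 in replicates 1, 2 and 3, a level of 6.27 ± 0.06 (SD, n = 3, as for all levels below). Slc2a3, the high-affinity transporter GLUT3 of neurons and early embryos, had 42351, 44240 and 45876, a level of 6.38 ± 0.10. Both transporters were bright on every array, with Slc2a3 lowest in replicate 1.

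Hexokinases trap glucose in the cell as glucose 6-phosphate. Hk1, the form of most tissues, had 6745, 4728 and 6848, a level of 3.51 ± 0.26. Hk2, the insulin-responsive form that also rises in tumours, had 6175, 6152 and 5348, a level of 3.47 ± 0.12. Replicate 2 was low for Hk1 and replicate 3 was low for Hk2, so the hexokinases did not share a low sample. Gpi1, the isomerase of the next step, had 104554, 105255 and 105292, a level of 7.63 ± 0.06.

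Phosphofructokinase commits the sugar to glycolysis, and its liver (Pfkl), muscle (Pfkm) and platelet (Pfkp) subunits were all detected. Pfkl had 2061, 2150 and 2235, and Pfkp had 3104, 3308 and 3210. Their levels were 2.02 ± 0.10 and 2.60 ± 0.10, lowest in replicate 1 for both. Pfkm was the gene of the list whose probe had 10 spots on each array. The mean over these spots was 4070 ± 178, 4100 ± 133 and 3920 ± 115 (SD, n = 10 spots), and the levels were 2.89, 3.00 and 2.90 with standard errors of 0.020, 0.015 and 0.014. The signal of replicate 2 was the highest, close to that of replicate 1. Scaling by the 75th percentile of each array widened the gap between their levels. The level of replicate 2 lay above the other arrays by more than the spread of the spots. The adjusted p was 0.00041 in limma's moderated F test with Benjamini-Hochberg adjustment. Of the 284 probes tested, 40.5% passed (115 probes), a count that ran from 11 after normexp background correction with quantile normalization to 152 with scaling by the array median, and fell to 28 when replicate 2 was left out and to 76 when replicate 1 was. The adjusted p was 0.856 without replicate 2 and 0.345 after the normexp correction, both in the same limma test, which compares these arrays and not conditions.

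Aldolase splits the sugar and triosephosphate isomerase makes both fragments usable. Aldoa, the widespread and muscle form, had 228454, 230944 and 243793, a level of 8.79 ± 0.08. Aldoc, the brain form, had 11320, 6286 and 11450, a level of 4.14 ± 0.45, which was the highest SD among the 38 detected genes. The low value was again in replicate 2, 0.82 log2 units below the highest. Tpi1 had 31779, 32651 and 32510, a level of 5.93 ± 0.07.

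The low replicate 2 values of Hk1 and Aldoc were set against their surroundings on the slide. On replicate 2 the scanner software marked groups of non-uniform spots, which fell into 6 of 48 blocks of the array, and 10 of the 56 probes lay in those blocks. The Aldoc spot lay in a block with 20 such spots and differed by -0.78 log2 units from the mean of replicates 1 and 3, whereas its 72 neighbouring spots had a median difference of -0.03. The Hk1 spot lay in a block with 0 such spots and had a difference of -0.45, against -0.01 for its 45 neighbours. In both cases the neighbours did not share the shift, and 0 spots of the 39 genes were themselves marked. Nearly all of these genes were measured by single spots (38 of 39), and the part of the spot and of the sample in these values was not tested.

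From the next step on, several enzymes have a second gene that is used in sperm. Gapdh, glyceraldehyde-3-phosphate dehydrogenase, had 318821, 316092 and 316484, a level of 9.23 ± 0.05. Gapdhs, its sperm form, had 34.9, 41.8 and 34.9, a level of -3.84 ± 0.20. Gapdhs was thus 3.40 to 3.66 times the lowest signal well above background of its array, and 2, 9 and 2 negative control spots were as bright or brighter.

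Phosphoglycerate kinase makes the first ATP of the pathway. Pgk1, the X-linked form of somatic cells, had 71038, 68421 and 73703, a level of 7.07 ± 0.06. Pgk2, the autosomal form of spermatogenic cells, had 27.0, 19.5 and 16.7, a level of -4.68 ± 0.31. It was 2.67, 1.71 and 1.63 times the lowest signal well above background, and 2, 15 and 3 negative control spots reached it, so its detection was near the limit of the arrays.

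Phosphoglycerate mutase and enolase follow. Pgam1, the widespread form, had 111711, 104015 and 112687, a level of 7.69 ± 0.04. Pgam2, the muscle form, had 787.1, 783.5 and 786.7, a level of 0.57 ± 0.05, and 0 negative control spots reached it on any array. Both genes thus gave clear signals with a small spread. Eno1, the widespread enolase, had 140181, 137271 and 142343, a level of 8.05 ± 0.05. Eno2, the neuronal form, had 137.2, 132.8 and 141.6, a level of -1.95 ± 0.05, with 0, 1 and 1 negative control spots at or above it. The muscle form Eno3 had 7025, 6487 and 6733, and its level of 3.67 ± 0.01 had the lowest SD of the 38, 0.0056. All 3 enolase genes were therefore detected and repeated closely, whichever tissue they are known from.

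Pyruvate kinase ends glycolysis. Pkm, which encodes the muscle and embryonic forms, had 38948, 40919 and 39558, a level of 6.23 ± 0.09. Pklr had 4.9, 8.2 and 8.3, which was 0.483, 0.718 and 0.810 times the lowest signal well above background, and 13, 18 and 5 negative control spots were as bright or brighter. Pklr was therefore not well above background, which sets a bound and not an absence. With the software's other flag, positive and significant against background, all 39 genes and 56 probes passed, Pklr included.

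Lactate dehydrogenase converts pyruvate to lactate. Ldha, the form of anaerobic tissues, had 172927, 167138 and 183113, a level of 8.36 ± 0.07, and Ldhb, the form of heart, had 27869, 29174 and 27311, a level of 5.73 ± 0.09. Ldhc, the testis form, had 188.3, 196.5 and 204.4, a level of -1.43 ± 0.10. All forms were detected, and 0, 1 and 1 negative control spots reached Ldhc.

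Pyruvate dehydrogenase links both pathways. Pdha1, the X-linked E1 alpha subunit, had 5134, 4674 and 4933, a level of 3.21 ± 0.02. Pdha2, its autosomal testis form, had 65.3, 61.2 and 56.8, a level of -3.12 ± 0.08, and was 5.36 to 6.47 times the lowest signal well above background, with 0, 4 and 2 negative control spots at or above it. Both alpha forms were therefore detected. Pdhb, the E1 beta subunit, had 26774, 24471 and 23065, a level of 5.55 ± 0.08. Pdk1, a kinase that switches the complex off, had 5675, 5315 and 5844, a level of 3.41 ± 0.06.

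The 10 genes from citrate synthase to malate dehydrogenase had signals above 1000 on every array by their representing probes, with SDs below 0.1. Cytosolic forms, Idh1 and Mdh1, are among them. Cs, citrate synthase, had 44481, 43310 and 44841, a level of 6.38 ± 0.04. Among the isocitrate dehydrogenases, the cytosolic Idh1 had 1332, 1231 and 1139, a level of 1.22 ± 0.09. The mitochondrial NADP form Idh2 had 41182, 39436 and 37929, a level of 6.22 ± 0.05. Replicate 3 was lowest for both. Idh3a, the catalytic subunit of the NAD form, had 11132, 9998 and 11079, a level of 4.34 ± 0.05. Ogdh, the E1 subunit of 2-oxoglutarate dehydrogenase, had 12115, 11596 and 11669, a level of 4.48 ± 0.02.

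The later steps repeated as closely. Sucla2, the ATP-specific subunit of succinyl-CoA ligase, had 10429, 9632 and 10512 (4.27 ± 0.05), and Suclg1, the shared alpha subunit, had 8773, 7670 and 8073 (3.95 ± 0.04). Fh1, fumarase, had 14214, 13356 and 13213, a level of 4.68 ± 0.03. Both malate dehydrogenases, which with their cytosolic and mitochondrial forms shuttle reducing power, were detected. Mdh1, the cytosolic form, had 17210, 15449 and 15411 (4.92 ± 0.05), and Mdh2, the mitochondrial form, had 107339, 103726 and 100129 (7.61 ± 0.05). Signal was highest in replicate 1 for Fh1, Mdh1 and Mdh2, and so was the 75th percentile by which signals are scaled.

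The genes were sorted into a widespread class and tissue-restricted classes. The widespread class is broad, as it also held Slc2a3, Hk2, Pfkl, Pfkm, Pfkp and Ldhb, which are named after or known from certain tissues. Its 30 genes were all detected, with levels from 1.22 to 9.23 and a median of 5.64. Of the 9 tissue-restricted genes 8 were detected, beside 72.7% of all named genes. The 4 spermatogenic genes, Gapdhs, Pgk2, Ldhc and Pdha2, had levels from -4.68 to -1.43 with a median of -3.48. Of the 7 genes with a mean signal below 1000, 4 were these, and the others were Pgam2, Eno2 and Pklr. In a bulk sample, a few cells with much of a transcript and many cells with little of it cannot be told apart, nor can fewer cells of a type and less RNA per cell.

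Markers of other cell types were read on the same arrays. Of 8 markers of spermatids and spermatocytes 6 were detected, with summed signals of 1490 to 1570. Of these sums Sycp3, a protein of the meiotic chromosome axis, gave 1280, 1241 and 1264. Prm1, Prm2, Tnp1, Tnp2 and Piwil1 were dim, with mean signals of 115, 44.6, 41.9, 23.8 and 43.9. Acrv1, of the acrosome, and Odf1, of the sperm tail, were flagged on 0 arrays. Of 6 muscle markers 5 were detected (summed 613 to 675), all but Ckm, and of 6 neuron markers 5 (summed 22000 to 25000), where Gad1 was seen on 2 arrays and Stmn2 (17285, 15652 and 15579) and Snap25 (7600, 7025 and 6287) made up nearly all of the sum. Liver had 2 of 6 (summed 164 to 192), where Alb, Apoa1 and Cyp7a1 were flagged on 0 arrays and Ttr on 1. Red cell precursors had 2 of 5 (summed 100 to 152) and fibroblasts 2 of 6 (summed 591 to 743). The part of such cells in the tissue-restricted isoenzyme signals was not tested.

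The isoenzyme pairs also differed in the DNA just upstream of them. Windows of 250 bases before each gene start were taken from RefSeq on GRCm38.p6, and 37 of the 39 genes matched, all but Slc2a3 and Idh3a. The widespread and the restricted form of 3 steps, and the undetected Pklr, are shown to let the reader see the contrast in CG dinucleotides, which are dense in the promoters of widely used genes. Each is written 5′ to 3′ on the strand of its gene, and capitals mark every CG.
Pgk1, chrX:106186850-106187099, plus strand: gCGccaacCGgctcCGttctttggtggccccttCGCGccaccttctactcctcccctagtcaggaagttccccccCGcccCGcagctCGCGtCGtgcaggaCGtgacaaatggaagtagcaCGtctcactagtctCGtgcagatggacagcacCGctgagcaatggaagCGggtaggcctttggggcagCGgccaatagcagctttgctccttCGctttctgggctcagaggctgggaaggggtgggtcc
Pgk2, chr17:40208610-40208859, minus strand: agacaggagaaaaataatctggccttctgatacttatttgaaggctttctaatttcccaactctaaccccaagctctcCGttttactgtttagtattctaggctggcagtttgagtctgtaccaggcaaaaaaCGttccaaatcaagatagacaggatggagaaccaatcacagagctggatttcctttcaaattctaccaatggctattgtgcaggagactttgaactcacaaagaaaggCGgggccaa
Pgam1, chr19:41911621-41911870, plus strand: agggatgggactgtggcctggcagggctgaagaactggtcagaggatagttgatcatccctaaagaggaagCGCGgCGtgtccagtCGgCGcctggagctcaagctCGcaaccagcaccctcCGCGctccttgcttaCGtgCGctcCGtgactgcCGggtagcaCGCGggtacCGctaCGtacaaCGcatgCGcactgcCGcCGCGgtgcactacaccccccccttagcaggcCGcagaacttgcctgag
Pgam2, chr11:5803797-5804046, minus strand: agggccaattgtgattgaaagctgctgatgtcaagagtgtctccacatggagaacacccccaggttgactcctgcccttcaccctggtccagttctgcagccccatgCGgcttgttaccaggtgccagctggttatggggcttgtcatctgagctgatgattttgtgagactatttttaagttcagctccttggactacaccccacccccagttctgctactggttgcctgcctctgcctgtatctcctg
Pdha1, chrX:160138431-160138680, minus strand: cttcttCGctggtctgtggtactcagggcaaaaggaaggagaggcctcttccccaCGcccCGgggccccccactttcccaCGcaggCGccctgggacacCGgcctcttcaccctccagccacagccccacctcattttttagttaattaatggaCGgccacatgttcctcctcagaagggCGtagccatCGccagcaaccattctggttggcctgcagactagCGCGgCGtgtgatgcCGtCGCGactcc
Pdha2, chr3:141212356-141212605, minus strand: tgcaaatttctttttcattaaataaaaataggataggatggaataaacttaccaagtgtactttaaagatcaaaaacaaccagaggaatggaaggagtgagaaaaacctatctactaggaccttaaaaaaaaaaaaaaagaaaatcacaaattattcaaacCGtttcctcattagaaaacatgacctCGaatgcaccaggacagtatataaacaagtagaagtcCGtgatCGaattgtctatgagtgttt
Pklr first window, chr3:89135892-89136141, plus strand: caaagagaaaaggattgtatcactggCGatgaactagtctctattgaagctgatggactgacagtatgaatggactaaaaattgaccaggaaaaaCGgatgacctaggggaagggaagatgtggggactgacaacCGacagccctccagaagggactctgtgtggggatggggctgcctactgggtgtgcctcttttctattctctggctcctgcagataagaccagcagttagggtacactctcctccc
Pklr second window, chr3:89136373-89136622, plus strand: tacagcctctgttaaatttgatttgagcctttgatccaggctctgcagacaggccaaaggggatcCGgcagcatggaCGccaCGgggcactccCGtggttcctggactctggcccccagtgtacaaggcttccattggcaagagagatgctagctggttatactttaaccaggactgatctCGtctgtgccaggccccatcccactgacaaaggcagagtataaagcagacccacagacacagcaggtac

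In these windows Pgk1 had 17 CG and Pgk2 3, Pgam1 had 22 and Pgam2 1, and Pdha1 had 15 and Pdha2 4. The Pklr windows held 3 and 5. Taking for each gene its window with the most CG, the 28 widespread genes had a median of 17 (8 to 35) and the 9 restricted genes a median of 4 (1 to 9), so the groups overlapped at 8 and 9 CG. The same count was taken over all named genes with a window, the genes above included. Its median was 15 for the 11958 detected and 3 for the 4416 not detected. Among the restricted forms Eno3 had 3 CG and Aldoc 5, and both were detected on all arrays.

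**Figure D2:**
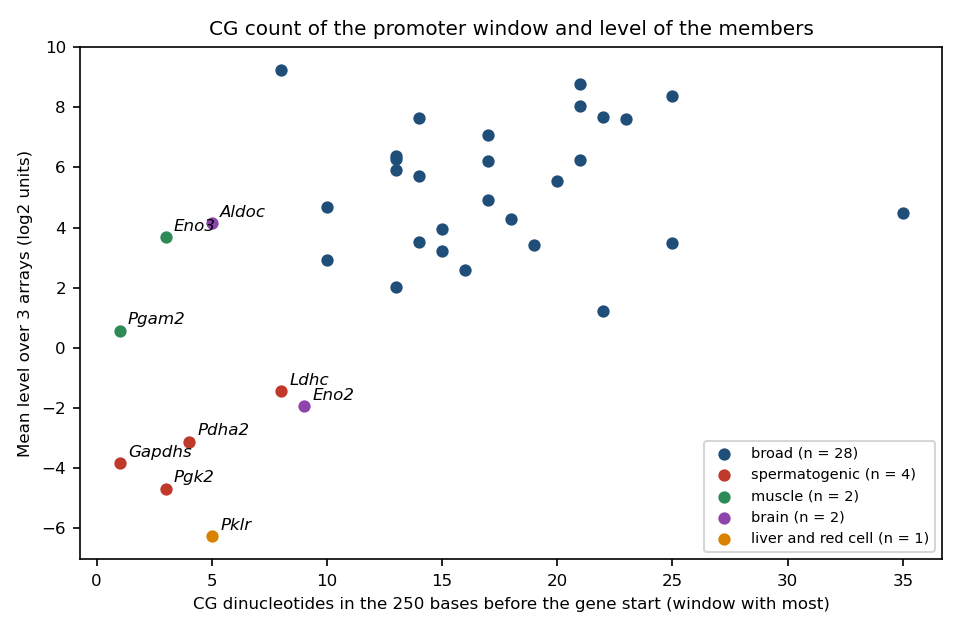
CG dinucleotides in the 250 bases before the gene start (x axis, the window with the most) against the mean level over 3 arrays (y axis, log2 units) for the 37 genes with a window, coloured by the tissue a form is known from. Restricted forms lie at 1 to 9 CG and widespread forms at 8 to 35. Levels of different genes come from different probes and are not compared.

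Short motifs were searched on both strands of the same windows. ACGTG is a core sequence that hypoxia-inducible factor and some basic helix-loop-helix factors can bind. It stood in at least 1 window of 11 of the 37 genes (29.7%), beside 20.8% of 16374 named genes with a window. The 11 were Slc2a1, Hk2, Pfkm, Aldoa, Pgk1, Pgam1, Pkm, Ldha, Pdhb, Ogdh and Mdh1. Over single windows, 18 of 58 held it, beside 16.6% of all 32851. TATAAA stood in windows of Eno2, Pklr and Pdha2 (8.11%, beside 13.1% of genes). The motif matches are a description of letters and were not tested against these arrays.

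Where a gene had several probes, these differed far more among themselves than the samples did. Among all 3905 named genes with several detected probes, the median range between probes was 2.18 log2 units (4.53-fold), and among the 9 genes of the list it was 3.58 (11.9-fold). Gpi1 had the closest probes, 0.27 log2 units apart over 3 probes. The Ldha probes were farthest apart, by 5.48, with 3667, 4029 and 4061 on the dimmest. Gapdh had 7 probes spread over 3.58 log2 units, Ogdh 3 over 5.03, Hk1 2 over 4.91, Pfkp 2 over 3.89, and Tpi1 2 over 2.70. The probes of Ldhc and Pdhb lay 1.19 and 0.76 apart. All of these were detected, so the choice of probe set the level and not the detection. The probe with the highest mean level represented each gene.

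The other probes also show how single low values repeat. The dimmer Hk1 probe had 192.4, 203.7 and 206.3 and was not lowest in replicate 2, unlike the brighter one. The dimmer Tpi1 probe had 5234, 3939 and 5949 and was low in replicate 2, a difference of -0.43 from the other arrays, where the brighter Tpi1 probe was not. The dimmer Ldhc probe had 91.0, 70.3 and 100.1, again lowest in replicate 2. A low replicate 2 thus belonged to 1 probe and not to all probes of Hk1, Tpi1 and Ldhc, and Aldoc had only 1 probe.

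**Figure D3:**
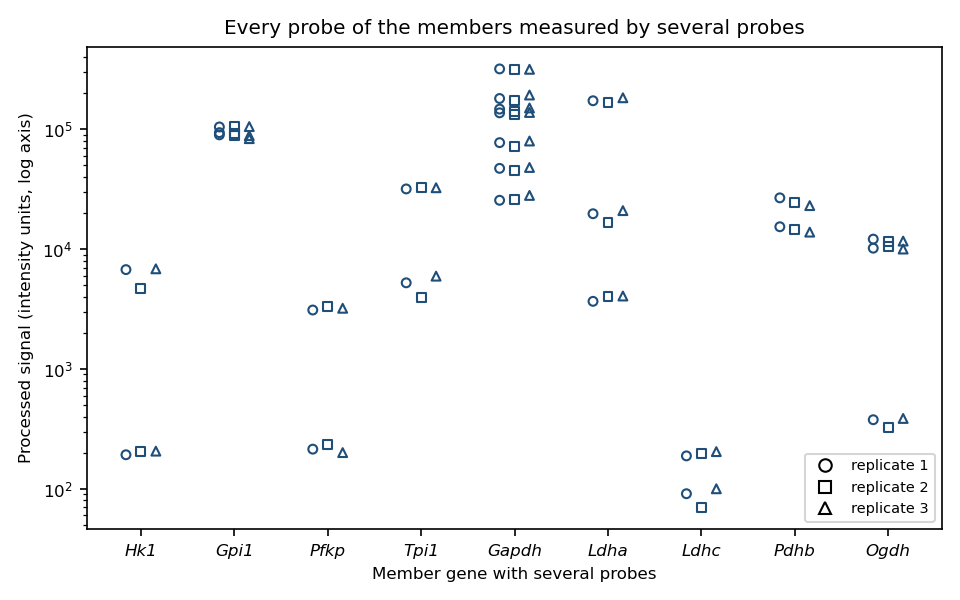
Processed signal (intensity units, log axis) of every probe of the 9 genes with several probes, with 1 symbol per replicate. Probes of one gene lie up to 5.48 log2 units apart (Ldha), while the replicates of a probe, drawn side by side, mostly lie at nearly the same height.

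The median SD of the 38 detected genes was 0.060 log2 units (0.0056 to 0.45), beside 0.074 for all detected named genes and 0.055 for the 3010 genes with a level between 3.00 and 6.35, the quartiles of the list. Without replicate 2 the order turned, with 0.059 for the isoenzyme genes and 0.051 for all. The SD was below 0.1 for 30 of 38. The highest and lowest levels were more than 1 log2 unit apart for 0 of 38, beside 0.987% of detected named genes, so the count of 0 was near that background. Genes from glucose uptake to lactate had a median SD of 0.078 and those from pyruvate dehydrogenase to malate 0.048. Replicate 2 was the array farthest from the other values for 11 of 38 genes (28.9%), beside 42.8% of all detected named genes.

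**Figure D4:**
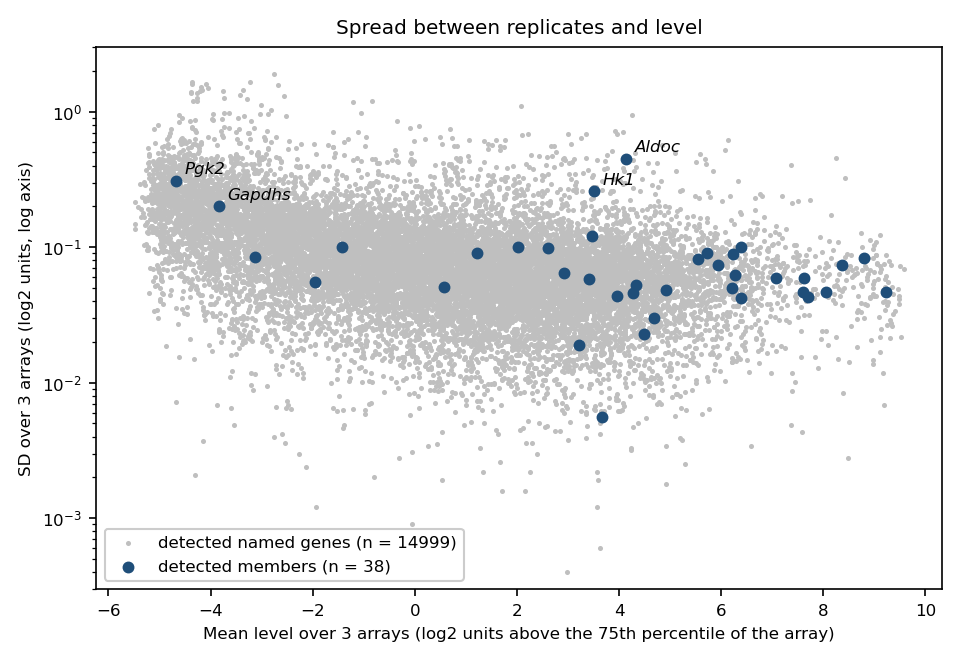
SD over 3 arrays (log2 units, log axis) against the mean level (log2 units above the 75th percentile of the array) for 14999 detected named genes in grey and the 38 detected isoenzyme genes in blue. The isoenzyme genes lie mostly to the right with SDs of 0.0056 to 0.45, and Aldoc, Pgk2, Hk1 and Gapdhs have the highest SDs among them.

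Small shifts between the arrays gave different medians for the early and the late steps. Replicate 3 was above replicate 1 for 22 of 24 genes from glucose uptake to lactate, with a median difference of 0.08 log2 units. From pyruvate dehydrogenase to malate it was above for 6 of 14, with a median of -0.04, beside 0.01 and 52.2% above over all detected named genes. Scaled by the array median instead, the medians were 0.13 and 0.01 and that of all genes 0.05, a shift of all genes that turned the sign of the later steps. Relative to all genes, the early steps lay above and the later steps below. Both scalings subtract a single value per array from every gene, so this order could not differ between them. Replicate 2 minus replicate 1 gave medians of 0.11 and 0.00, beside 0.03 for all genes. These shifts are of the size of the SDs, and with 1 array a sample they were not tested.

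Genes that surround these steps were taken from lists of 60, and 55 (91.7%) were detected, beside 72.7% of all named genes. The detected ones had a median level of 1.55 and a median SD of 0.082. All 10 other TCA cycle genes were detected, with a median level of 4.95. Sdhd, an anchor of succinate dehydrogenase, had 29262, 27460 and 28381 with an SD of 0.01, the lowest of that list, and Aco1, the cytosolic aconitase, had 58.8, 59.6 and 42.6 with the highest, 0.27. All 8 other pyruvate dehydrogenase genes were detected, of which the kinase Pdk4 varied least (219.5, 205.3 and 203.7) and the phosphatase Pdp1 most (487.4, 463.1 and 415.7). All 6 genes of lactate and pyruvate transport were detected too. Mpc2, of the mitochondrial pyruvate carrier, had 4209, 3906 and 4150, and the monocarboxylate transporter Slc16a7 had 31.3, 18.5 and 29.8, an SD of 0.37.

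Of 8 further transporters and sugar kinases 5 were detected (62.5%, beside 72.7% of all named genes). Slc2a4, the insulin-regulated transporter, had 597.9, 570.3 and 582.3, and Slc2a8 had 6163, 5997 and 5413. Slc2a2, the transporter of liver and pancreatic beta cells, had 2.1, 2.4 and 2.2 and passed on 0 arrays. Slc2a10 and Hk3 passed on 1 array each. Among 14 other genes of glycolysis and gluconeogenesis 13 were detected, all but Pck1 (2.1, 3.5 and 2.4), which serves gluconeogenesis in liver. G6pc, the liver phosphatase that releases glucose, had 40.3, 23.1 and 23.5 with an SD of 0.41, and Pfkfb1 had 1526, 1420 and 1413. The liver genes Pklr, Slc2a2 and Pck1 were thus all below the limit on every array, while G6pc was not.

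In the pentose phosphate and citrate branch 13 of 14 genes were detected (92.9%, beside 72.7% of all named genes). Rpia, ribose-5-phosphate isomerase, had 174.5, 169.6 and 177.0, an SD of 0.04. Me1, the cytosolic malic enzyme, had 2207, 1376 and 2099, an SD of 0.33, and was lowest in replicate 2 as Hk1 and Aldoc were. Me3, a mitochondrial malic enzyme, had 9.8, 7.9 and 10.5 and passed on 0 arrays.

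**Figure D5:**
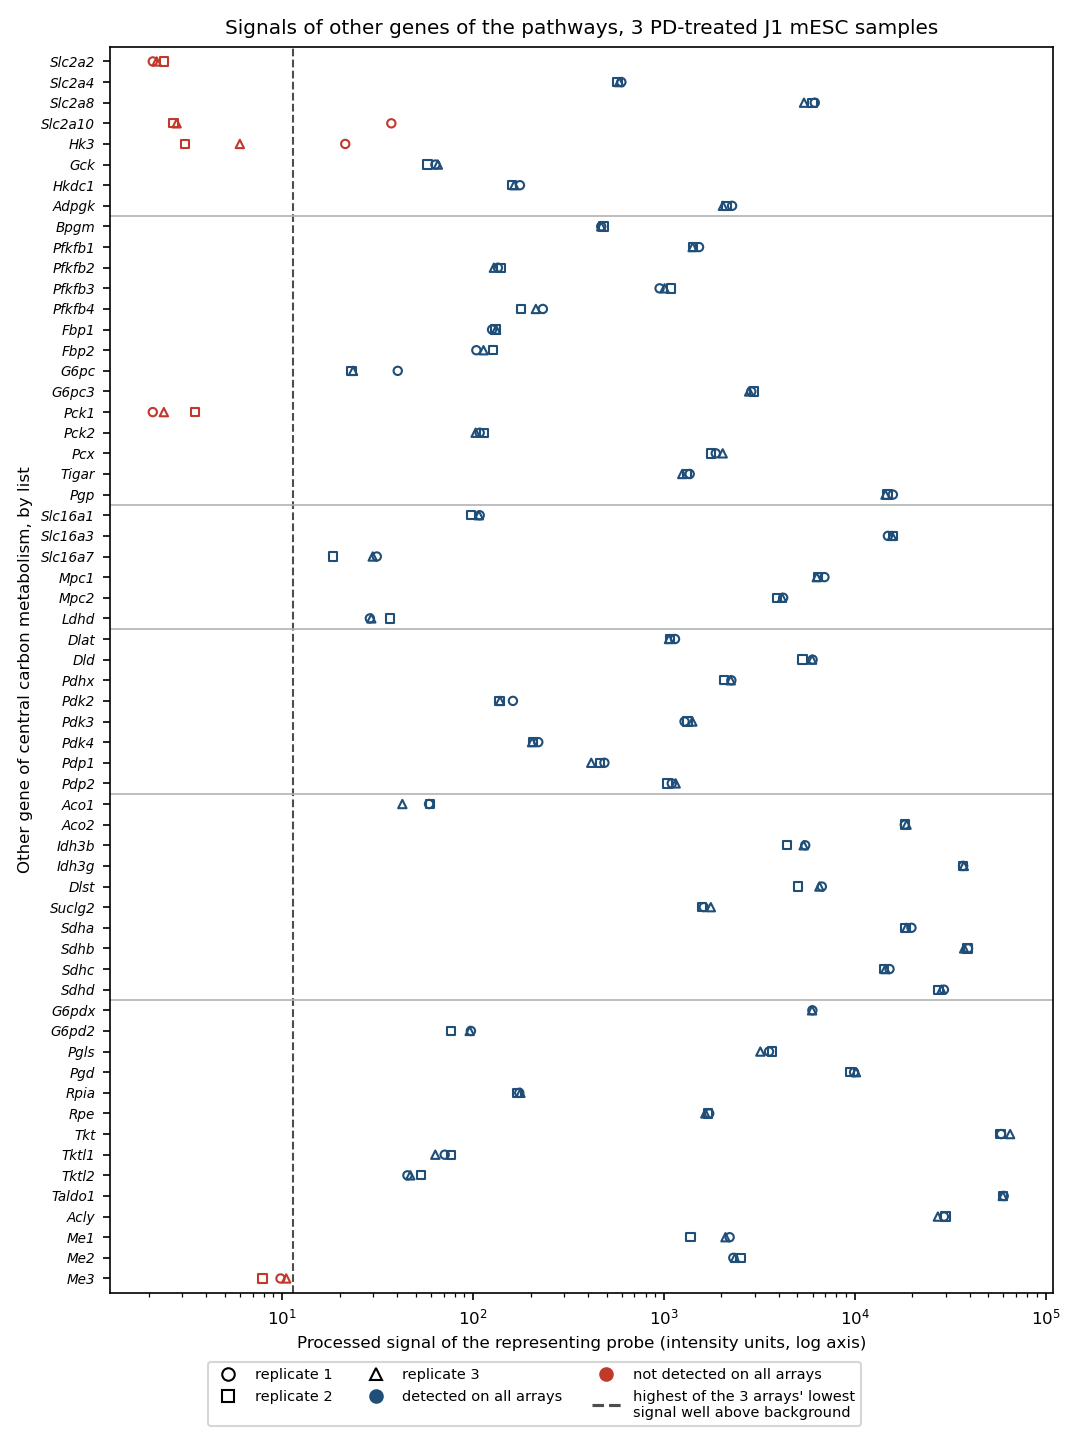
Processed signal (intensity units, log axis) of the 60 surrounding genes in the order of their lists, with 1 symbol per replicate, blue where detected on all arrays and red where not. The 5 red genes are Slc2a2, Slc2a10, Hk3, Pck1 and Me3, the dashed line at 11.4 is the highest of the 3 arrays' lowest signals well above background, and the replicate 2 spot of G6pdx is left out because the software marked it.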

How the data were processed

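RNA of 3 PD-treated J1 mESC cultures was labelled with Cy3 and hybridised to 1 Agilent mouse array each. Per the file headers, the authors deposited spot intensities from Agilent Feature Extraction 10.7.3.1 (10.7 in the submitters' processing notes), background-subtracted and detrended within each array and not normalized between arrays. The authors also deposited a log2 value per probe, whose normalization is not stated. The array grid is on mm9, and the only coordinates given are those of RefSeq promoter windows on GRCm38.p6. Accessions matched RefSeq symbols for 27235 of 55681 probes (48.9%), that is 20660 genes.

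From the intensities, log2 signals were averaged over the unmarked spots of a probe (non-uniform and population outlier spots left out) and the 75th percentile of the array was subtracted. Detection needed at least 50% of the spots of a probe well above background on every array, and the probe with the highest mean level represented a gene. Probes with 10 spots were compared between arrays by limma 3.58.1 in R 4.3.3 (moderated F test, Benjamini-Hochberg at 0.05), tested on simulated data. Other steps used Python 3.11.15. Alternatives were other scalings, normexp (offset 50, started from the median raw signal, as the files hold no mean), the deposited table, other probe and detection rules, no filter on dim probes, and leaving out each replicate. Blocks with at least 10 non-uniform spots on replicate 2, and neighbours within 5 rows and columns, were examined after seeing the data. The t-test against control cells in the methods was not run, as control cells were not analysed here.

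The 39 genes and the lists of other genes were chosen with earlier results of these data known. An item of the lists is not reported here. All 39 were named, and of the other pathway genes those not detected and those with the highest and lowest SD of each list. Sycp3, Stmn2, Snap25, Dppa5a, Nanog and the dimmer probes were singled out after their values were seen. Depth does not apply to arrays. With 3 arrays, means and SDs are of limited precision.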

Additional observations from a re-analysis of the deposited data

How the results depend on the processing

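The counts of detected genes (38 to 39) and of detected probes (55 to 56), and the count of 0 genes with a range above 1 log2 unit, held under every alternative run. The level of the list above all detected genes, 3.80, became 3.74 with normexp and quantile normalization, 3.76 with the deposited table, 3.94 with the mean of all probes, 5.49 without the filter on dim probes, and 3.69 without the marked blocks of replicate 2, an alternative chosen after seeing the data. Leaving out each replicate gave 3.80 to 3.89. The median SD, 0.060, became 0.073 with the array median and 0.055 with normexp, and 0.051 to 0.059 without 1 replicate, and without replicate 2 that of all genes was 0.051, below the 0.059 of the list. The call for Pfkm between arrays was lost (0 probes called) with normexp, and leaving out each replicate gave 0 to 1 calls, 0 without replicate 2. The causes were not tested. No paired analysis was possible because the labels give a single group, so that no 2 groups share replicate numbers. Signal over background limits what can be said of Pklr, Pgk2, Gapdhs, Pdha2, Eno2 and Ldhc, whose signals some negative control spots reached.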

Other observations

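Slc2a10, a transporter of the endoplasmic reticulum and Golgi, had 37.3 in replicate 1 and 2.7 and 2.8 in replicates 2 and 3, and it was well above background on 1 array. Hk3, the hexokinase of white blood cells, had 21.4, 3.1 and 6.0, and was also detected on 1 array. Other dim genes were highest on other arrays. Alas2, a marker of red cell precursors, had 5.0, 47.6 and 5.8 and was detected in replicate 2 alone, and Gapdhs was highest in replicate 2. These genes were chosen after their values were seen, and they are single spots near the limit of detection.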
